A study of Mus with 8 samples.

Results

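The comparison was the change of the BTEE effect between 6 h and 17 h of LPS stimulation in RAW264 cells, that is BTEE minus control at 17 h minus the same difference at 6 h, on log2 signals of all 8 arrays of the series. BTEE is an ethanol extract of the freshwater green microalga Botryococcus terribilis, and LPS (lipopolysaccharide) is the outer-membrane lipid of Gram-negative bacteria. Of 21154 gene symbols on the arrays, 9387 averaged a log2 signal of 6 or more, and 4795 of these (51.1%) had BTEE effects of opposite sign at the different times. Of the 4795, 771 passed limma's test at both times and are called reversed here, 2183 passed at 1 time and 1841 at neither. Passing means an adjusted p under 0.05, with p-values adjusted over all 21154 symbols.

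The 4 groups, of 2 arrays each, were BTEE at 6 h (cells held for 24 h with 0.2 mg/mL BTEE and then for 6 h with 1 ng/mL LPS), control at 6 h (24 h in plain culture medium and the same LPS for 6 h), BTEE at 17 h and control at 17 h (the same treatments with 17 h of LPS). Every group had LPS, so no unstimulated cells entered the comparison, and the labels name no ethanol vehicle for the control. RAW264 is a single macrophage-like line of BALB/c mouse origin that was transformed by Abelson leukemia virus. The labels leave it unsaid whether the duplicates of a group were grown separately. The spread behind each p-value is thus that between 2 arrays and may be technical.

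LPS is sensed by Toll-like receptor 4, which starts an early wave of NF-kB-driven cytokine and chemokine genes and, through secreted type I interferon, a wave of interferon-stimulated genes. Many of these transcripts peak within hours and then decline, while mouse macrophages turn from mitochondrial respiration toward glycolysis. An effect that differs between an early and a late time can therefore concern the early wave, the later metabolic and growth state, or both.

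The macrophage identity of the cells was clear from their markers. The 19 measured macrophage genes had a median log2 signal of 13.70 to 14.14 over the 4 groups, with Spi1 and Lyz2 the brightest, against 3.69 to 3.80 for B cell markers and 3.29 to 3.52 for T and NK cell markers, of which Cd4 reached 7.44 to 7.99. The median signal of the arrays lay between 5.25 and 5.28. Duplicates correlated with r of 0.9984 to 0.9987, BTEE with control arrays of 1 time with 0.9942 to 0.9948, and arrays of different times with 0.9755 to 0.9799. A limit of duplicates was visible in 1442 genes for odor, taste and pheromone receptors, whose median log2 signal was 3.62. Their BTEE effect differed between the times with an SD of 0.524, where the spread of duplicates gives 0.236, 18.9% of them passed the test of the difference, and 2.77% were reversed. With that additional spread given to all symbols, no symbol passed (limma, smallest adjusted p = 0.998, with 157 higher and 134 lower at an unadjusted p under 0.05), so the calls below hold against the duplicates and not against this wider spread.

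The BTEE effect was higher at 17 h than at 6 h for 2209 symbols (23.5% of the 9387) and lower for 1597 (17.0%). Over all 21154 symbols, 31.4% passed in either direction. At 6 h, 1903 symbols fell (20.3%) and 1549 rose (16.5%) with BTEE. At 17 h, 1570 fell (16.7%) and 2067 rose (22.0%). Of the 3806 symbols whose effect differed between the times, 1256 had a BTEE effect past the test at 6 h alone, 1423 at 17 h alone and 254 at neither time.

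Reversal was about as frequent as a lasting effect, and neither number was tested against that of unrelated effects at the different times. Of 1413 symbols past the test at both times, 771 were reversed and 642 moved the same way, 362 of them down and 280 up. Of the reversed symbols, 459 fell at 6 h and rose at 17 h (4.89% of the 9387) and 312 rose at 6 h and fell at 17 h (3.32%). The effects were moderate, with a fold over 1.5 at both times in 38 symbols of the first kind and 27 of the other. Quantile normalization of the deposited values changed the balance, with 366 symbols that fell and then rose and 390 that rose and then fell, so the excess of the first kind (59.5% of the reversed, against 48.4% after quantile normalization) rests on the scaling. When any 1 array was left out, 239 to 291 symbols fell and then rose and 149 to 207 rose and then fell. Since opposite effects at the separate times chose these symbols, it follows from the choice that all 771 also passed the test of the difference and that their arrays did not overlap at either time.

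**Figure D1:**
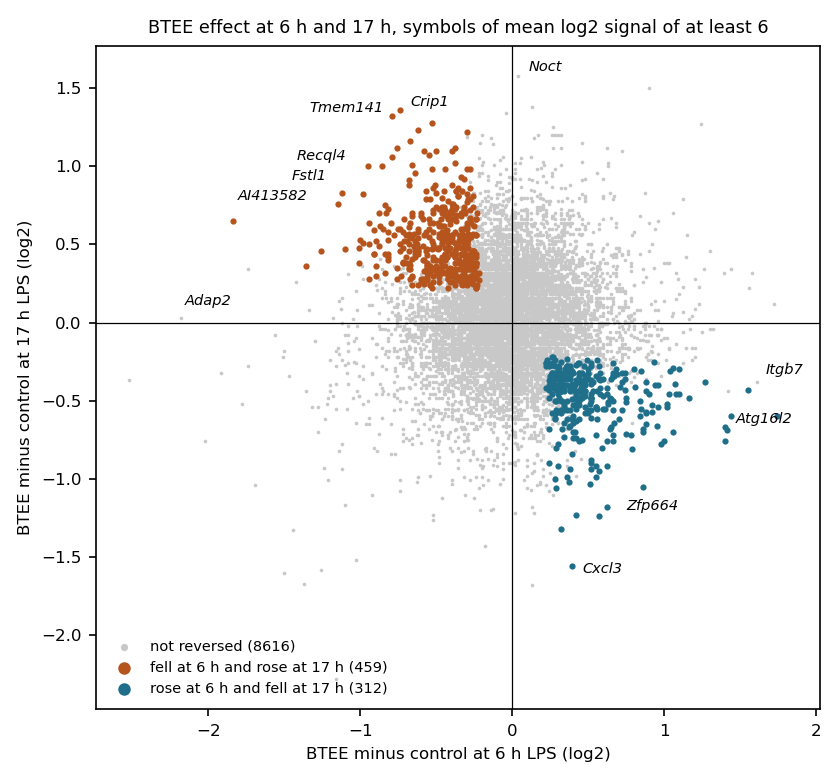
BTEE effect at 6 h (x axis, BTEE minus control, log2) against the effect at 17 h (y axis, log2) for 9387 symbols of mean log2 signal of at least 6, each a point. The 459 orange symbols fell at 6 h and rose at 17 h, the 312 blue ones rose at 6 h and fell at 17 h, and the rest are grey.

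Of the opposite-sign symbols just inside and outside the limits, Neu4 had a mean log2 signal of 6.009 and counted as reversed, with log2 fold changes of -0.32 at 6 h and 0.30 at 17 h, and Gas6, at 5.994, did not count, with -0.76 and 0.60. Ndufc2 was the reversed symbol nearest to the threshold of the test, with an adjusted p of 0.0498 at 6 h, and Mogs was nearest outside, with 0.0501. Below a mean log2 signal of 6, 436 of 11767 symbols were past the test at both times in opposite directions and were not counted.

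The leading symbols that fell at 6 h and rose at 17 h, ordered by the smaller of their effects, were Recql4, Cpsf3l, Fstl1, Tmem119, Ndufa11, Tmem141, AI413582, Rangrf, Ap2s1, Crip1, Ipo4 and Fbxw17. They belong to no single pathway. Recql4, a RecQ helicase of DNA replication and repair (GRCm38 chromosome 15, 76703553 to 76710616), had log2 signals of 5.59 and 5.25 in BTEE cells against 6.48 and 6.26 in control cells at 6 h, and of 7.41 and 7.33 in BTEE cells against 6.29 and 6.44 in control cells at 17 h. Its control arrays overlapped between the times, and BTEE arrays lay below them at 6 h and above them at 17 h. The BTEE arrays of 6 h were under the minimum signal of 6, which Recql4 passed through its other arrays. The BTEE effect was thus a 1.93-fold fall at 6 h and a 2.01-fold rise at 17 h, a difference of 1.96 on the log2 scale (SE 0.19). The test of this difference is not independent of the choice of the leading symbols, which had to pass it. Cpsf3l, now named Ints11, is the endonuclease of the Integrator complex that cleaves nascent small nuclear RNAs (chromosome 4, 155869547 to 155889103). It had log2 signals of 7.44 and 7.54 in BTEE cells against 8.40 and 8.31 in control cells at 6 h, and of 8.22 and 8.21 against 7.19 and 7.23 at 17 h. The groups did not overlap at the same time, which was required of the leading symbols, and the difference between the times was 1.87 (SE 0.11).

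Fstl1, a secreted glycoprotein of the follistatin family (chromosome 16, 37777055 to 37836516), had log2 signals of 7.77 and 7.89 in BTEE cells against 8.95 and 8.95 in control cells at 6 h, and of 7.57 and 7.61 in BTEE cells against 6.72 and 6.80 in control cells at 17 h. In control cells it was 2.19 lower at 17 h than at 6 h, and in BTEE cells 0.24 lower. BTEE therefore lay below control 2.17-fold at 6 h and above it 1.78-fold at 17 h. Tmem141, which encodes a small transmembrane protein (chromosome 2, 25620066 to 25622047), had a similar shape. Its log2 signals were 11.10 and 11.13 in BTEE cells against 11.96 and 11.85 in control cells at 6 h, and 11.05 and 11.09 in BTEE cells against 9.79 and 9.71 in control cells at 17 h. The BTEE arrays of the different times lay within 0.1 of each other, while the control arrays did not come near each other.

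Crip1, a LIM-domain protein of the cytoskeleton (chromosome 12, 113152012 to 113153879), was the leading symbol with the largest rise at 17 h. It had log2 signals of 9.91 and 10.01 in BTEE cells against 10.64 and 10.77 in control cells at 6 h. At 17 h it had 7.08 and 7.5 in BTEE cells against 5.86 and 6.01 in control cells, the first of these control arrays under the minimum signal of 6. The difference between the times was 2.10 (SE 0.20). All BTEE arrays lay inside the range of the control arrays. Ap2s1, the small subunit of the clathrin adaptor AP2 of endocytosis (chromosome 7, 16738444 to 16749290), was tight between duplicates. Its log2 signals were 11.75 in both BTEE arrays against 12.59 and 12.58 in control cells at 6 h, and 12.18 and 12.08 in BTEE cells against 11.42 and 11.34 in control cells at 17 h.

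Of the other leading symbols of this kind, AI413582, an uncharacterized gene, had the largest fall at 6 h of the 12, with log2 fold changes of -1.15 at 6 h and 0.76 at 17 h. Rangrf, a cofactor of the nuclear transport GTPase Ran, had log2 fold changes of -0.76 at 6 h and 1.12 at 17 h. Ipo4, a nuclear import receptor for ribosomal proteins and histones, had -0.82 and 0.73, and Fbxw17, an F-box protein, had -0.88 and 0.70. Tmem119, best known as a marker of microglia, had -0.98 and 0.82, with control arrays of 7.13 and 6.53 at 6 h that lay further apart than those of the other leading symbols. Among all symbols of this kind, Lbr, the lamin B receptor of the inner nuclear membrane, had the largest fall at 6 h. It was singled out after its values were seen, with log2 fold changes of -1.84 at 6 h and 0.65 at 17 h.

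The leading symbols that rose at 6 h and fell at 17 h were Zfp664, Alg12, Zfp189, Gm11111, Gm17304, Fam76a, Masp2, Svip, Ccdc54, 6430503K07Rik, Olfr1371 and Atg16l2. They included 2 zinc finger genes and, at low signal, genes with little known function. Zfp664, a zinc finger protein (chromosome 5, 124862705 to 124888630), had log2 signals of 7.33 and 7.48 in BTEE cells against 6.54 and 6.54 in control cells at 6 h, and of 6.5 and 6.44 in BTEE cells against 7.48 and 7.56 in control cells at 17 h. The levels were nearly exchanged between the groups, with a difference between the times of -1.92 (SE 0.11). Alg12, the mannosyltransferase of the endoplasmic reticulum (ER) that extends the oligosaccharide precursor of N-glycosylation (chromosome 15, 88805243 to 88819318), had log2 signals of 10.59 and 10.57 in BTEE cells against 9.73 and 9.85 in control cells at 6 h, and of 11.25 and 11.22 in BTEE cells against 12.05 and 12.04 in control cells at 17 h. Both groups had more signal at 17 h, and the increase was smaller in BTEE cells (0.66) than in control cells (2.26).

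Atg16l2 is a paralog of the autophagy protein Atg16l1 (chromosome 7, 101286325 to 101302267). Its log2 signals were 9.02 and 8.97 in BTEE cells against 7.53 and 7.65 in control cells at 6 h, and 9.19 and 9.29 in BTEE cells against 10.00 and 9.82 in control cells at 17 h. The BTEE arrays of both times lay between the control arrays of 6 h and those of 17 h. Masp2, a serine protease of the lectin pathway of complement (chromosome 4, 148594622 to 148615499), had log2 fold changes of 0.75 at 6 h and -0.71 at 17 h. Svip, an inhibitor of ER-associated degradation (chromosome 7, 51997161 to 52006018), had 0.86 and -0.70. It lay under the minimum signal of 6 in control cells at 6 h (5.72 and 5.68) and in BTEE cells at 17 h (5.98 and 5.93).

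Zfp189, another zinc finger gene, had log2 fold changes of 0.98 at 6 h and -0.78 at 17 h, and Fam76a had 0.78 and -0.72. Ccdc54 had 1.06 and -0.70, 6430503K07Rik had 1.41 and -0.69, and the predicted genes Gm11111 and Gm17304 had 1.40 and 1.00 at 6 h and -0.76 and -0.76 at 17 h. Some of their arrays lay under the minimum signal of 6. These were control arrays at 6 h for Ccdc54 (5.11 and 5.49), Gm11111 (5.38 and 5.55) and 6430503K07Rik (5.82). For Zfp189 they were the BTEE arrays at 17 h (5.65 and 5.68). Olfr1371 (0.86 and -0.68) is itself an olfactory receptor gene, with a mean log2 signal of 6.08, and belongs to the receptor genes whose spread is given above. It too lay under 6 in control cells at 6 h (5.65 and 5.76) and in BTEE cells at 17 h (5.58 and 5.81). Symbols of the Zfp family, a group chosen after these leading genes were seen, numbered 218 of the 9387. Of them 56 had a lower BTEE effect at 17 h (25.7%, against 17.0% of all) and 28 a higher one (12.8%, against 23.5%). The 11 that rose and then fell made up 3.53% of the symbols of that kind. The 4 that fell and then rose made up 0.871% of theirs, where Zfp symbols were 2.32% of the 9387.

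**Figure D2:**
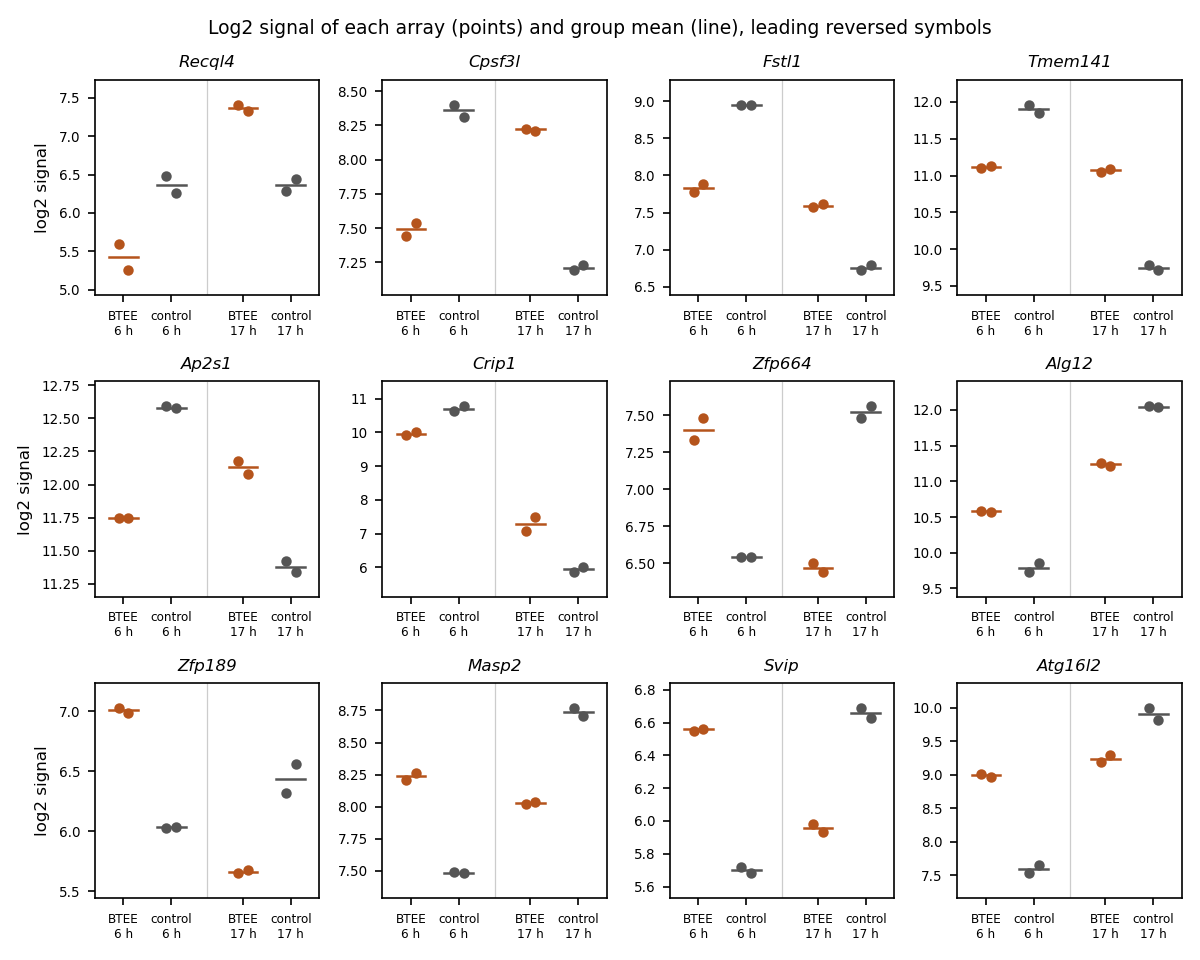
Log2 signal (y axes) in each array of the 4 groups for 12 of the leading reversed symbols, with BTEE arrays in orange, control arrays in grey, points for arrays and lines for the means of 2 arrays. In the first 6 panels BTEE lies below control at 6 h and above it at 17 h, and in the other 6 the order is turned.

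The time courses of the groups were set side by side for the reversed symbols. Both the change over time and the difference between the times are built from the same arrays, so these values are a description. The 459 symbols that fell and then rose had a median log2 change between 6 h and 17 h of 0.15 in BTEE cells and -0.80 in control cells. The 312 that rose and then fell had -0.105 in BTEE cells and 0.883 in control cells. Median BTEE effects were -0.43 at 6 h and 0.475 at 17 h in the first set, and 0.44 and -0.438 in the other. Genes of the first set spanned a median of 18117 bp on the genome and those of the other set 24779 bp, beside 22915 bp over all symbols of sufficient signal.

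Many subunits of the mitochondrial respiratory chain fell at 6 h and rose at 17 h, 18 of the 77 in 3 lists together (23.4%, against 4.89% of all symbols). Complex I, which oxidizes NADH, had 35 members of sufficient signal. At 6 h 10 fell (28.6%, against 20.3% of all symbols) and 1 rose (2.86%, against 16.5%). At 17 h 1 fell (2.86%, against 16.7%) and 24 rose (68.6%, against 22.0%). The effect was higher at 17 h for 19 of them (54.3%, against 23.5%), lower for 2 and not past the test for 14, and 9 fell and then rose (25.7%, against 4.89%). Complexes II to IV had 25 members, 15 of them with a higher effect at 17 h, 6 that fell and then rose and 1 that rose and then fell, Cox6a1. ATP synthase had 17 members, 11 of them with a higher effect at 17 h and 3 that fell and then rose. Over these lists together the median log2 fold change was -0.09 at 6 h and 0.30 at 17 h, beside -0.02 and 0.02 over all symbols. When any 1 array was left out, 14 to 16 members of complex I had a higher effect at 17 h and 4 to 6 fell and then rose, 0 to 2 members of ATP synthase fell and then rose, and Cox6a1 was no longer reversed. After quantile normalization 5 members of complex I fell and then rose. The lists were drawn up with earlier results of these arrays known, so their counts are a description.

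Ndufs7, an iron-sulfur subunit of complex I, showed the size of the change. It had log2 signals of 13.70 and 13.53 in BTEE cells against 14.19 and 14.27 in control cells at 6 h, and of 13.61 and 13.54 in BTEE cells against 12.33 and 12.37 in control cells at 17 h. The BTEE arrays stayed within 0.2 of each other over the times, below control at 6 h and above it at 17 h. Ndufa11, an accessory subunit of complex I, had log2 signals of 11.23 and 11.27 in BTEE cells against 12.13 and 11.95 in control cells at 6 h, and of 10.28 and 10.58 in BTEE cells against 9.44 and 9.29 in control cells at 17 h. Here both groups had less signal at 17 h, BTEE cells by 0.82 and control cells by 2.68. Of further accessory subunits, Ndufb2 had log2 fold changes of -0.60 at 6 h and 0.70 at 17 h, and Ndufa2 had -0.52 and 0.70.

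In complex III, which passes electrons to cytochrome c, Uqcr10 had log2 fold changes of -0.66 at 6 h and 0.68 at 17 h, Cyc1, the cytochrome c1 subunit, had -0.43 and 0.54, and Uqcrh had -0.43 and 0.42. Cox6b1 of cytochrome oxidase (complex IV) had -0.40 and 0.73. The reversed subunits of ATP synthase were Atp5e (-0.70 and 0.38), Atp5k (-0.58 and 0.33) and Atp5g3, of the proton-carrying ring (-0.24 and 0.30). Members that went the other way were few and were named after their values were seen. The BTEE effect was lower at 17 h for Ndufb8 (0.34 at 6 h and -0.16 at 17 h), Ndufb7, Atp5d and Cox6a1, with differences between the times of -0.50, -0.40, -0.30 and -0.50. The calls of Ndufb8, Ndufb7 and Atp5d (adjusted p = 0.0250, 0.0387 and 0.0441) were lost when most single arrays were left out, and the difference of Atp5d was 0.11 when all of its probe sets were averaged.

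**Figure D3:**
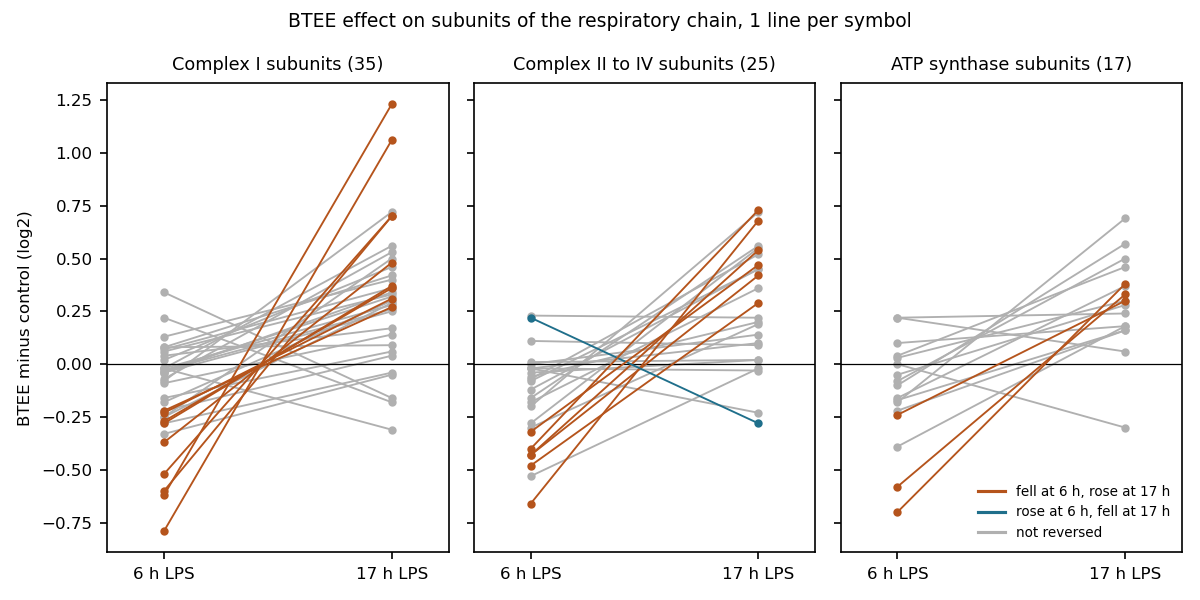
BTEE effect (y axis, BTEE minus control, log2) at 6 h and 17 h of LPS for the members of sufficient signal of complex I (35), complexes II to IV (25) and ATP synthase (17), 1 line each. Orange lines fell at 6 h and rose at 17 h (9, 6 and 3), the blue line is Cox6a1, and most grey lines also rise between the times.

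Of 36 assembly factors of the respiratory chain, 13 had a higher BTEE effect at 17 h (36.1%, against 23.5% of all symbols) and 1 a lower one, and 3 were reversed (8.33%, against 4.89%), namely Uqcc1 (-0.62 at 6 h and 0.58 at 17 h), Ndufaf5 (-0.50 and 0.74) and Nubpl (-0.39 and 0.74), which loads iron-sulfur clusters into complex I. Of 74 mitochondrial ribosomal proteins, 31 were higher at 17 h (41.9%) and 3 lower, with 8 that fell and then rose (10.8%), among them Mrpl37 (-0.57 and 0.84), Mrps28 (-0.65 and 0.57) and Mrps18c (-0.48 and 0.55). When any 1 array was left out, 20 to 26 were higher, 1 to 3 lower and 5 to 7 fell and then rose, and after quantile normalization 26 were higher and 7 lower. Mrps27 alone among them went the other way, with 0.88 at 6 h and -0.57 at 17 h. Of the import machinery, Pmpcb, the catalytic subunit of the peptidase that removes targeting sequences, had log2 signals of 11.86 and 11.94 in BTEE cells against 12.58 and 12.53 in control cells at 6 h, and of 12.80 and 12.90 in BTEE cells against 11.92 and 11.76 in control cells at 17 h. As for all reversed symbols, the groups did not overlap at either time. Tomm7 of the outer membrane translocase had log2 fold changes of -0.57 and 0.46.

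The tricarboxylic acid cycle had 18 members, 7 with a higher effect at 17 h (38.9%, against 23.5% of all symbols) and 1 with a lower one (5.56%, against 17.0%). Fh1, fumarate hydratase, had log2 fold changes of -0.31 at 6 h and 0.44 at 17 h, and Pdha1 of pyruvate dehydrogenase, which feeds the cycle, had -0.44 and 0.36. Glycolysis, with 19 members, was close to all symbols, with 4 higher (21.1%) and 2 lower at 17 h and no reversal. A list of the hypoxia factor HIF1 held 13 members, its targets and Hif1a, which encodes a subunit of the factor itself. Here, in contrast, 5 had a lower effect at 17 h (38.5%, against 17.0%) and 1 a higher one (7.69%, against 23.5%). Bnip3 and Bnip3l, receptors of mitochondrial autophagy, were reversed, with 0.29 and 0.34 at 6 h and -0.58 and -0.35 at 17 h. The remaining members with a lower effect were Hif1a, Vegfa and Pdk1, with differences between the times of -0.48, -0.59 and -0.40, and the call of Pdk1 was lost when most single arrays were left out.

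In the spliceosome, 22 of 42 members had a higher BTEE effect at 17 h (52.4%, against 23.5% of all symbols) and 6 a lower one (14.3%, against 17.0%), with 8 that fell and then rose and 1, Srsf2, that rose and then fell. When any 1 array was left out, 4 to 6 members fell and then rose, and 1 rose and then fell without BTEE array 1 at 17 h and none without any other array. Snrpd2, a core protein of the spliceosomal ribonucleoproteins, had log2 signals of 14.83 and 14.80 in BTEE cells against 15.21 and 15.20 in control cells at 6 h, and of 14.66 and 14.71 in BTEE cells against 13.90 and 13.96 in control cells at 17 h. As for all reversed symbols, the groups were separate at both times. Snrpc of the U1 particle had log2 fold changes of -0.62 and 0.46, Prpf19, a ubiquitin ligase of the active spliceosome, -0.44 and 0.72, and Sf3b5 -0.38 and 0.74.

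Of 65 cytosolic ribosomal proteins, 28 had a higher effect at 17 h (43.1%, against 23.5% of all symbols) and 4 a lower one (6.15%, against 17.0%), and 6 fell and then rose, including Rpl38 (-0.56 at 6 h and 0.35 at 17 h) and Rps19 (-0.26 and 0.36). Ribosomal protein genes have many near-identical copies in the genome that probes may share, so single values are uncertain. After quantile normalization 1 member was reversed, and when any 1 array was left out 17 to 20 effects were higher, 1 to 3 lower and 1 to 3 members reversed. Of 58 ribosome biogenesis factors, 7 fell at 6 h (12.1%, against 20.3% of all symbols) and 15 rose (25.9%, against 16.5%). At 17 h 29 of the 58 rose, against 22.0% of all symbols. Polr1c, shared by RNA polymerases I and III, had log2 fold changes of -0.42 and 0.78, and Nip7 -0.40 and 0.88, while Ppan had 0.88 and -0.44. Translation initiation and elongation factors were near all symbols, with 8 of 38 higher (21.1%) and 4 lower (10.5%), as were aminoacyl-tRNA synthetases, with 5 of 19 higher (26.3%) and 2 lower. No translation factor fell and then rose, and 3 rose and then fell, including Eif2b2 (0.84 and -0.50), a subunit of the exchange factor of eIF2, and Eif3a (0.32 and -0.43).

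**Figure D4:**
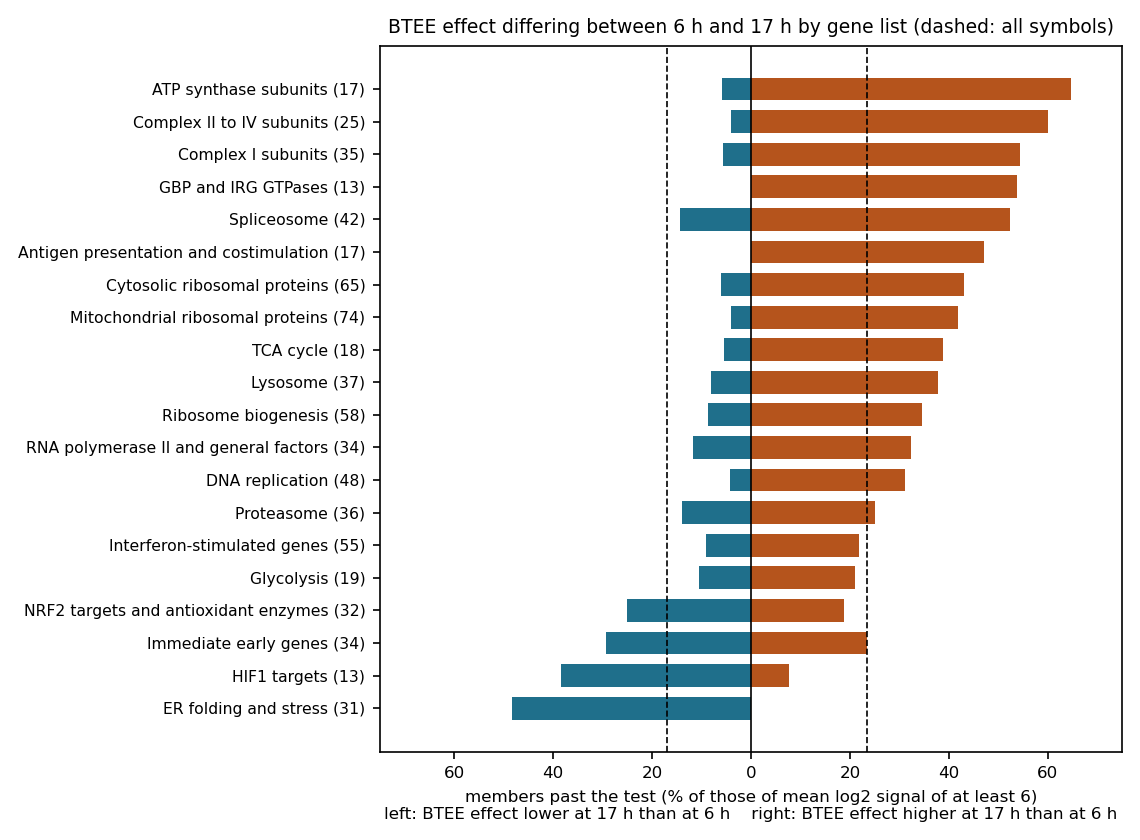
Share of the members of 20 gene lists (rows, number of members of sufficient signal in brackets) whose BTEE effect was higher at 17 h than at 6 h (orange, right) or lower (blue, left), in percent. Dashed lines mark the shares over all 9387 symbols, 23.5% and 17.0%; lists of the respiratory chain reach 54.3% to 64.7% on the right and ER folding 48.4% on the left.

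In antigen presentation and costimulation, 15 of 17 members fell at 6 h (88.2%, against 20.3% of all symbols) and none rose. At 17 h 4 fell and 4 rose (23.5% each, against 16.7% and 22.0%). The effect was higher at 17 h for 8 (47.1%, against 23.5%) and lower for none. Several other immune lists did not share this shape. Of 20 cytokines, 9 fell at 6 h and 9 at 17 h, and of 10 CC chemokines 8 and 6. Of 27 cytokine and chemokine receptors, 12 fell at each time, and of 26 members of the NF-kB list 10 and 12. Over all symbols 20.3% fell at 6 h and 16.7% at 17 h. The GBP and IRG GTPases below came closer to it, with 7 of 13 higher at 17 h (53.8%) and none lower. Among macrophage identity genes, 6 of 17 were higher at 17 h (35.3%) and 2 lower. The 4 reversed members of antigen presentation (23.5%, against 4.89% of all symbols) process peptides for class I molecules. They are Psmb10, Psmb9 and Psmb8, the catalytic subunits of the interferon-induced immunoproteasome, and Erap1, the aminopeptidase that trims peptides in the ER. Psmb10 had log2 signals of 11.92 and 11.77 in BTEE cells against 12.73 and 12.83 in control cells at 6 h, and of 10.99 and 10.96 in BTEE cells against 10.40 and 10.26 in control cells at 17 h. Psmb9 had log2 signals of 10.49 and 10.41 in BTEE cells against 11.39 and 11.39 in control cells at 6 h, and of 10.38 and 10.30 in BTEE cells against 9.88 and 9.79 in control cells at 17 h. BTEE arrays lay below control at 6 h and above it at 17 h in each case, as for all symbols that fell and then rose. Psmb8 had log2 fold changes of -0.56 and 0.38, and Erap1 -0.67 and 0.34. Tap1, the peptide transporter whose gene lies between Psmb9 and Psmb8, was named after its values were seen and fell at 6 h (-0.50), with 0.14 at 17 h, which did not pass (adjusted p = 0.1645).

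Of 55 interferon-stimulated genes, 36 fell at 6 h (65.5%, against 20.3% of all symbols) and none rose (against 16.5%). At 17 h 28 fell (50.9%, against 16.7%) and 3 rose (5.45%, against 22.0%). The difference between the times was positive for 12 (21.8%) and negative for 5 (9.09%), beside 23.5% and 17.0% of all symbols. The 3 that rose at 17 h were reversed: Ifi44l (-0.72 and 0.48), Daxx (-0.64 and 0.42) and Ifi35 (-0.38 and 0.32). Ifi44l had log2 signals of 13.93 and 13.92 in BTEE cells against 14.66 and 14.64 in control cells at 6 h, and of 10.95 and 11.01 in BTEE cells against 10.57 and 10.44 in control cells at 17 h, so that its rise at 17 h took place at a level far under that of 6 h. The GBP and IRG GTPases, interferon-induced proteins that attack the vacuoles of intracellular pathogens, had no reversal. Of 13 members 11 fell at 6 h (84.6%, against 20.3% of all symbols) and 6 at 17 h (46.2%, against 16.7%). The effect was less negative at 17 h for 7 (53.8%, against 23.5%). Tgtp2, Gbp4 and Gbp2, named after their values were seen, had differences between the times of 1.46, 1.32 and 1.12. At 17 h Tgtp2 had log2 signals of 5.09 and 4.92 in BTEE cells against 5.48 and 5.08 in control cells. It lay under the minimum signal of 6 in each of these arrays and passed that limit through its 6 h arrays.

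Among cytokines, the subunits of interleukin 27 moved in opposite ways. Interleukin 27 is a heterodimer of the proteins of Il27 and Ebi3 that activated macrophages secrete. Il27 had log2 signals of 12.21 and 12.22 in BTEE cells against 13.21 and 13.25 in control cells at 6 h, and of 7.80 and 7.62 in BTEE cells against 7.25 and 7.20 in control cells at 17 h. Ebi3 had log2 signals of 12.31 and 12.24 in BTEE cells against 11.94 and 12 in control cells at 6 h, and of 12.24 and 12.20 in BTEE cells against 12.50 and 12.58 in control cells at 17 h. The BTEE effect on Il27 was -1.01 at 6 h and 0.48 at 17 h, and on Ebi3 0.30 and -0.32. Tnfsf10, the death ligand TRAIL, had -0.91 and 0.44. At 17 h, however, its log2 signal was 5.75 and 5.54 in BTEE cells against 5.07 and 5.33 in control cells. These lay under the minimum signal of 6, which Tnfsf10 passed through its 6 h arrays. Il15 and Il18, singled out after their values were seen, fell at 6 h (-1.10 and -1.04) and had -0.08 and -0.12 at 17 h, which did not pass the test.

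Cxcl3, a neutrophil-attracting chemokine, had the largest fall at 17 h among the named reversed genes. Its log2 signals were 9.66 and 9.56 in BTEE cells against 9.11 and 9.33 in control cells at 6 h, and 9.72 and 9.95 in BTEE cells against 11.40 and 11.40 in control cells at 17 h. The fold change was 1.31 up at 6 h and 2.96 down at 17 h. Cxcl10, an interferon-induced chemokine singled out after its values were seen, had log2 fold changes of -0.19 at 6 h, which did not pass, and -1.04 at 17 h. Of the NF-kB pathway, Rela, its p65 subunit, had log2 signals of 12.54 and 12.61 in BTEE cells against 12.32 and 12.30 in control cells at 6 h, and of 12.84 and 12.88 in BTEE cells against 13.46 and 13.43 in control cells at 17 h. Traf2, an adaptor of TNF receptors, and Ikbke, a kinase of the interferon arm, went the other way, with -0.27 and -0.33 at 6 h and 0.64 and 0.34 at 17 h. So did Mapkapk2, the kinase under p38 that stabilizes cytokine mRNAs (-0.85 and 0.60).

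Of 13 members of sufficient signal of the prostaglandin and leukotriene list, 3 had a higher and 3 a lower effect at 17 h (23.1% each, against 23.5% and 17.0% of all symbols), and the median difference was 0.04. The 3 with a higher effect were reversed and make leukotrienes. Alox5, 5-lipoxygenase, had log2 signals of 7.45 and 7.21 in BTEE cells against 7.84 and 7.90 in control cells at 6 h, and of 5.55 and 5.31 in BTEE cells against 4.68 and 4.60 in control cells at 17 h, where it lay under the minimum signal of 6 in each array and passed that limit through its 6 h arrays. Lta4h, which makes leukotriene B4, had log2 fold changes of -0.46 and 0.33, and Ltc4s, which makes leukotriene C4, -0.28 and 0.79. Of the macrophage identity genes, Trem2, a lipid receptor, had -0.40 and 0.66, and Fcgr1, the high affinity IgG receptor, -0.60 and 0.26.

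**Figure D5:**
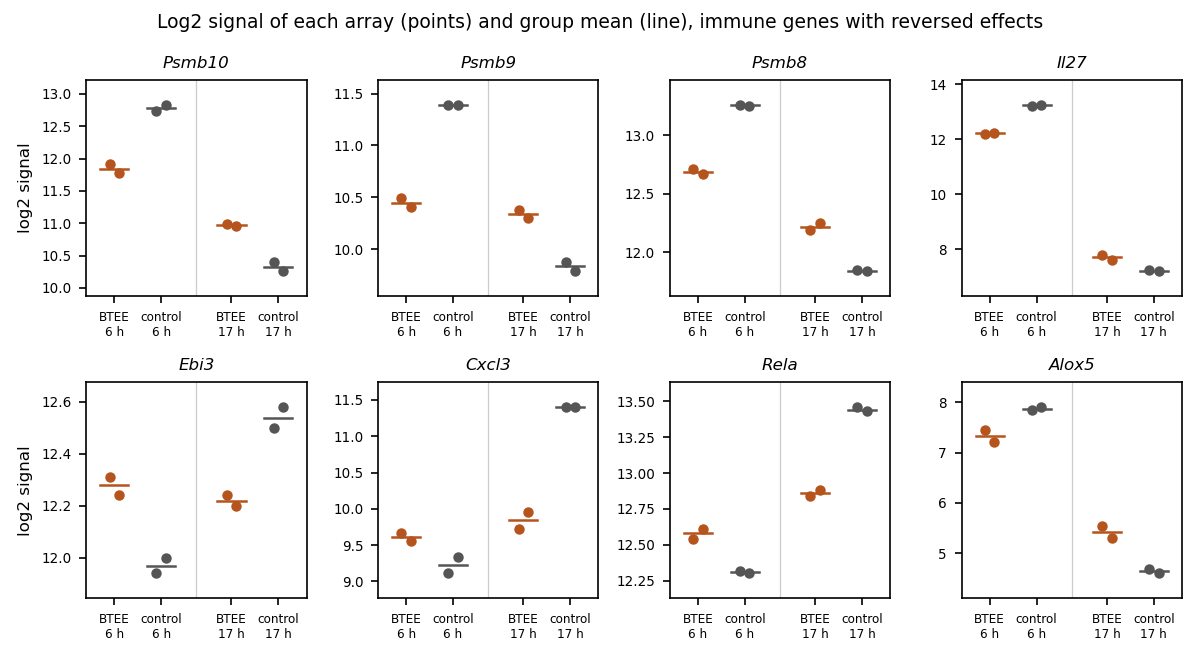
Log2 signal (y axes) in each array of the 4 groups for 8 immune genes with reversed effects, with BTEE arrays in orange, control arrays in grey and lines for the means of 2 arrays. BTEE lies below control at 6 h and above it at 17 h for Psmb10, Psmb9, Psmb8, Il27 and Alox5, and the other way round for Ebi3, Cxcl3 and Rela.

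Of 31 ER folding and stress genes, 19 rose at 6 h (61.3%, against 16.5% of all symbols) and none fell. At 17 h 5 rose and 5 fell (16.1% each, against 22.0% and 16.7%). The effect was lower at 17 h for 15 (48.4%, against 17.0%) and higher for none. The member that was reversed was Syvn1, the ubiquitin ligase of ER-associated degradation. With the fit over symbols of sufficient signal alone or with a trended robust prior 6 were reversed, and 2 were after quantile normalization or when 1 control array at 6 h was left out. Syvn1 had log2 signals of 10.70 and 10.62 in BTEE cells against 9.96 and 9.87 in control cells at 6 h, and of 8.30 and 8.29 in BTEE cells against 8.77 and 8.68 in control cells at 17 h. Sel1l, the partner of Syvn1, had log2 fold changes of 0.96 and -0.20, Sdf2l1 0.92 and -0.19, Creld2 1.08 and 0.15, and Hspa5, the major ER chaperone, 0.45 and 0.00. These 4 were named after their values were seen, and none passed the test at 17 h.

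In the lysosome, 17 of 37 members fell at 6 h (45.9%, against 20.3% of all symbols) and 1 rose, while 6 fell and 6 rose at 17 h (16.2% each, against 16.7% and 22.0%), and 14 had a higher effect at 17 h (37.8%, against 23.5%). Sidt2, an RNA transporter of the lysosomal membrane, had log2 fold changes of -1.36 and 0.36, and Tfe3, a transcription factor of lysosomal genes, -0.28 and 0.28. Npc1, the cholesterol exporter of the lysosome, went the other way, with log2 signals of 10.37 and 10.42 in BTEE cells against 9.85 and 9.91 in control cells at 6 h, and of 11.72 and 11.71 in BTEE cells against 12.22 and 12.22 in control cells at 17 h. In lipid synthesis, reversed members included Sqle, squalene epoxidase (-0.90 and 0.30), and Acaca, acetyl-CoA carboxylase (-0.60 and 0.28). Their lists as a whole did not share this shape. Of 21 cholesterol synthesis genes, 5 had a higher effect at 17 h (23.8%, against 23.5% of all symbols) and 4 a lower one. Of 18 members of the fatty acid list, 5 were higher (27.8%) and 4 lower. Median log2 fold changes at 6 h and 17 h were -0.1 and -0.09 for cholesterol synthesis, and -0.2 and -0.19 for the fatty acid list.

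Antioxidant genes were divided. Cat, catalase, had log2 signals of 14.13 and 14.09 in BTEE cells against 13.56 and 13.56 in control cells at 6 h, and of 15.25 and 15.20 in BTEE cells against 15.75 and 15.77 in control cells at 17 h. Mt1, a metal-binding protein, had log2 fold changes of 0.32 and -0.56, and Hmox1, heme oxygenase, singled out after its values were seen, 0.46 and -0.17, the second of which did not pass. Gpx4, the peroxidase of membrane lipids, had -0.30 and 0.60. Reversal among 42 DNA repair genes was close to that of all symbols. Of them 2 fell and then rose (4.76%, against 4.89%), Ercc1 (-0.48 and 0.62) and Xrcc5 (-0.46 and 0.55). Brca2 (0.46 and -0.39) alone rose and then fell (2.38%, against 3.32%). Replication-dependent histone genes were mostly higher at both times. Of 46 members, 27 rose at 6 h (58.7%, against 16.5% of all symbols) and 36 at 17 h (78.3%, against 22.0%). Hist2h2aa1 alone was reversed (-0.36 and 0.81).

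Some of the largest differences between the times came without a reversal, with an effect at 17 h that did not pass the test. Adap2, which regulates ARF6 at membranes, had log2 signals of 7.25 and 7.08 in BTEE cells against 9.28 and 9.42 in control cells at 6 h, and of 6.98 and 7.18 in BTEE cells against 7.04 and 7.06 in control cells at 17 h. It was 4.55-fold lower with BTEE at 6 h, and the groups overlapped at 17 h. Ifit1bl1, of the interferon-induced IFIT family, was 5.76-fold lower at 6 h, and Kat2b, a histone acetyltransferase, 3.33-fold lower. At 17 h Ifit1bl1 had log2 signals of 5.6 and 5.71 in BTEE cells against 5.94 and 6.11 in control cells, lower with BTEE as at 6 h. Kat2b had 5.86 and 5.89 against 5.38 and 5.69. Nearly all of these lay under the minimum signal of 6, and both genes passed that limit through 6 h arrays. In the other direction, the predicted gene Gm10198 was 3.51-fold, Itgb7, the integrin beta 7 chain, 3.05-fold and Trim59 2.67-fold higher with BTEE at 6 h. Noct, a deadenylase-related gene under circadian control that was named after its values were seen, was the reverse in time, with a log2 fold change of 0.04 at 6 h, which did not pass, and 1.58 at 17 h. At 17 h it had log2 signals of 6.52 and 6.84 in BTEE cells against 5.17 and 5.03 in control cells. These control arrays lay under the minimum signal of 6, and Noct passed that limit through its other arrays.

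The mediators that the study assayed by RT-qPCR showed little reversal on the arrays. Il6 was lower at both times (-1.14 and -0.82). Il1b and Ptgs2, which encodes cyclooxygenase 2, fell at 17 h (-0.64 and -0.44) with -0.16 and 0.02 at 6 h, while Nos2, which makes nitric oxide, fell at 6 h (-0.57) with 0.08 at 17 h. The difference between the times was -0.48 for Il1b (adjusted p = 0.0155), -0.46 for Ptgs2 (adjusted p = 0.0137), 0.65 for Nos2 (adjusted p = 0.0083) and 0.32 for Il6 (adjusted p = 0.0450). Without control array 1 at 17 h the adjusted p of Il1b was 0.0531, and that of Il6 was 0.0610 to 0.1274 when any 1 array was left out. The difference did not pass for Ccl2 (0.18), Tnf (-0.09), Ppargc1b (-0.04), Atf3 (0.00) or Socs1 (0.54). That of Socs1 was 0.90 without control array 1 at 6 h. However, the mean log2 signal of Socs1 was 4.74, under the limit of 6. Its log2 signals at 17 h were 3.41 and 3.41 in BTEE cells against 3.65 and 3.69 in control cells. Gapdh, the reference gene, had -0.04 at 6 h and -0.04 at 17 h. Il10, whose mean log2 signal of 5.96 also lay under the limit, had log2 fold changes of -0.55 and 0.38, both past the test.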

How the data were processed

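Clariom S mouse arrays (8 in all, 2 in each of 4 groups) measured the transcripts of RAW264 cells. The deposited values are log2 signals that the authors summarized and normalized with SST-RMA in the Transcriptome Analysis Console (version 4.0.2 in the methods, 4.0.1 in the series text). A further deposited table held the authors' group averages, which differed by at most 0.005 from the means of the signals, and their fold changes and p-values, which were not used. Of 22206 probe sets, 836 with several symbols and 3 with none were left out, and for symbols with more than 1 probe set the brightest was kept (213 left out), which gave 21154 symbols. Coordinates came from RefSeq genes of GRCm38.p6, in which 19689 symbols matched directly, 858 through an older symbol and 607 not at all.

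A model with 1 mean per group was fitted to all symbols with limma 3.58.1 in R 4.3.3 (4 residual and 3.12 prior degrees of freedom), with Benjamini-Hochberg adjustment over all symbols for each contrast, after the script was tested on simulated data. Named were the 12 reversed symbols per direction with the largest smaller effect, up to 4 reversed members per gene list, the 3 largest unreversed differences per direction and the assayed mediators, and 26 genes were named after their values were seen. The 12 per direction also had to pass the test of the difference, with BTEE and control arrays not overlapping at either time. All 771 reversed symbols met both conditions. Members and lists were chosen with earlier results of these data known. Alternatives were quantile normalization, centring, other minimum signals, priors and probe set rules, a replicate block, each time alone, a test against a fold of 1.2, the spread of receptor genes and leaving out each array. One result is not reported here.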

Additional observations from a re-analysis of the deposited data

Results flagged for a closer look

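The results below are those for which the BTEE effect differed between 17 h and 6 h by the test of that difference (limma, adjusted p under 0.05). It was passed by 2209 symbols with a higher and 1597 with a lower effect at 17 h, and each named gene is given with the difference between the times on the log2 scale, 17 h effect minus 6 h effect. For genes with reversed effects the test is not independent of their choice, and no difference passed with the spread of the receptor genes added.

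For the leading symbols that fell and then rose the difference was 2.11 for Tmem141, 2.10 for Crip1, 1.96 for Recql4, 1.95 for Fstl1, 1.91 for AI413582, 1.87 for Cpsf3l, 1.87 for Rangrf, 1.86 for Ndufa11, 1.80 for Tmem119, 1.59 for Fbxw17, 1.58 for Ap2s1 and 1.55 for Ipo4. For those that rose and then fell it was -2.16 for Gm11111, -2.10 for 6430503K07Rik, -2.08 for Atg16l2, -1.92 for Zfp664, -1.76 for Ccdc54, -1.75 for Zfp189, -1.75 for Gm17304, -1.60 for Alg12, -1.56 for Svip, -1.53 for Olfr1371, -1.5 for Fam76a and -1.46 for Masp2. It was 2.49 for Lbr, a reversed symbol that was named after its values were seen. Without a reversal it was 2.22 for Adap2, 2.15 for Ifit1bl1, 2.08 for Kat2b and 1.54 for Noct, and -2.06 for Gm10198, -1.98 for Itgb7 and -1.86 for Trim59.

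In the respiratory chain and ATP synthase the difference was 1.84 for Ndufs7, 1.33 for Uqcr10, 1.30 for Ndufb2, 1.22 for Ndufa2, 1.14 for Cox6b1, 1.09 for Atp5e, 0.97 for Cyc1, 0.92 for Atp5k, 0.86 for Uqcrh, 0.54 for Atp5g3 and 0.54 for Ndufc2, against -0.50 for Ndufb8, -0.50 for Cox6a1, -0.40 for Ndufb7 and -0.30 for Atp5d. Among other mitochondrial and HIF1-related genes it was 1.66 for Pmpcb, 1.42 for Mrpl37, 1.24 for Ndufaf5, 1.23 for Mrps28, 1.2 for Uqcc1, 1.12 for Nubpl, 1.03 for Tomm7, 1.02 for Mrps18c, 0.80 for Pdha1 and 0.75 for Fh1, against -1.46 for Mrps27, -0.88 for Bnip3, -0.70 for Bnip3l, -0.59 for Vegfa, -0.48 for Hif1a and -0.40 for Pdk1.

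In splicing, ribosomes and translation it was 1.27 for Nip7, 1.2 for Polr1c, 1.16 for Prpf19, 1.14 for Snrpd2, 1.12 for Sf3b5, 1.08 for Snrpc, 0.92 for Rpl38 and 0.62 for Rps19, against -1.35 for Eif2b2, -1.32 for Ppan, -0.74 for Eif3a and -0.66 for Srsf2. In antigen presentation and interferon response it was 1.58 for Psmb10, 1.46 for Tgtp2, 1.44 for Psmb9, 1.32 for Gbp4, 1.2 for Ifi44l, 1.12 for Gbp2, 1.06 for Daxx, 1.00 for Erap1, 0.94 for Psmb8, 0.69 for Ifi35 and 0.64 for Tap1. Among cytokines, signalling and lipid mediators it was 1.5 for Il27, 1.44 for Mapkapk2, 1.36 for Tnfsf10, 1.33 for Alox5, 1.08 for Ltc4s, 1.06 for Trem2, 1.02 for Il15, 0.93 for Il18, 0.93 for Il10, 0.91 for Traf2, 0.86 for Fcgr1, 0.80 for Lta4h, 0.68 for Ikbke, 0.65 for Nos2 and 0.32 for Il6, against -1.96 for Cxcl3, -0.86 for Cxcl10, -0.85 for Rela, -0.62 for Ebi3, -0.48 for Il1b and -0.46 for Ptgs2.

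In the ER, lysosome and lipid synthesis it was 1.72 for Sidt2, 1.2 for Sqle, 0.87 for Acaca and 0.56 for Tfe3, against -1.18 for Syvn1, -1.16 for Sel1l, -1.10 for Sdf2l1, -1.02 for Npc1, -0.93 for Creld2, -0.62 for Mogs and -0.45 for Hspa5. Among the remaining genes it was 1.36 for Gas6, 1.16 for Hist2h2aa1, 1.10 for Ercc1, 1.01 for Xrcc5, 0.90 for Gpx4 and 0.62 for Neu4, against -1.08 for Cat, -0.89 for Mt1, -0.84 for Brca2 and -0.64 for Hmox1.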

How the results depend on the processing

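The main counts (2209 symbols with a higher and 1597 with a lower effect at 17 h, 459 that fell and then rose and 312 that rose and then fell) stayed within 1.5 times under centring, another probe set rule, a minimum signal of 8 and no moderation. Under quantile normalization they were 1873, 1876, 366 and 390, so that higher and lower effects were nearly equal in number (58.0% higher without it) and symbols that fell and then rose 48.4% of the reversed in place of 59.5% (63.2% after centring). Reversed symbols numbered 823 and 560 with the fit over symbols of sufficient signal alone, 806 and 549 with a trended robust prior, and 262 and 179 with each time fitted alone. Without a minimum signal, 3530 effects were higher and 3121 lower, and 554 rose and then fell. A test against a fold of 1.2 left 863, 648, 27 and 16. With the spread of the receptor genes added limma called 0, 0, 0 and 0 (at an unadjusted p under 0.05, 157, 134, 3 and 1, where the counts without it were 2844, 2145, 800 and 546). Leaving out 1 array gave 1557 to 1694 higher, 1094 to 1227 lower, 239 to 291 that fell and then rose and 149 to 207 that rose and then fell, the lone array being assumed to vary like the others, and the cause of these changes was not tested beyond the smaller number of arrays. Arrays of 1 number share only that number, with deviations correlated at -0.001 to 0.02 between groups. With it as a replicate block the counts were 2008, 1452, 383 and 266. Of the named genes, Atp5d changed sign (0.11) when the probe sets of a symbol were averaged. The test against a fold of 1.2 ended the call of 19 of 134 named genes, among them Nos2, Il1b, Ptgs2, Il6, Hspa5, Atp5g3 and Hif1a (adjusted p of 0.0568 for Nos2 and 0.1733 for Il1b). Il6, Ndufb7 and Atp5d lost their calls with the block, Il6 also after quantile normalization and without any 1 array. Ccl2 gained a call with the trended robust prior (limma, adjusted p = 0.0187). Without control array 1 at 6 h the difference of Socs1 was 0.90, at a mean log2 signal of 4.74. A planned count of promoter motifs was not run. Only 2 arrays per group limit the precision.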
